A study of Mus musculus with 6 samples.

Results

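Tubulin isotypes are the separate genes that encode the alpha and beta subunits of microtubules. Described here are 6 beta genes (Tubb3, Tubb2a, Tubb2b, Tubb4b, Tubb5 and Tubb6) and 4 alpha genes (Tuba1a, Tuba1b, Tuba1c and Tuba4a). They were listed by name, by a rule that used none of their values, but with earlier results of these data known. All 10 were found among the 57010 genes of the table. The questions were what part of the counted RNA of fibroblasts was tubulin mRNA on substrates of different stiffness, and which isotypes made it up. RNA was sequenced from fibroblasts of mouse ear skin kept for 3 days on a polyacrylamide gel of 1 kPa, a polyacrylamide gel of 20 kPa, or glass, the control, with 500000 cells cultured per sample. Crosslinking sets the stiffness of such a hydrogel, and both gels are far softer than glass. The series concerns how substrate stiffness bears on the conversion of fibroblasts into neurons, but the labels of these samples name no reprogramming factor. Each group had 2 libraries of polyadenylated RNA, and the sources used here give neither strain nor age.

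Microtubules are hollow polymers of alpha-beta tubulin dimers that serve as tracks for transport, shape the cell and build the mitotic spindle. The isotypes differ most in their acidic carboxy-terminal tails, where enzymes add or remove tyrosine and glutamate and where motors and other proteins bind. Cells also adjust tubulin mRNA to the amount of free dimer: the factor TTC5 recognises the start of a nascent tubulin chain and recruits an adaptor and a deadenylase to the mRNA. Tubb3 is used as a marker of neurons, Tuba1a, Tubb2a and Tubb2b are abundant in developing brain, Tubb5, Tubb4b and Tuba1b are expressed in most dividing cells, and Tubb6 is a broadly expressed isotype known from regenerating muscle.

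The first 12 coding bases, in capitals below, encode the residues that TTC5 reads, and 1 gene of each class is shown to mark the difference between the classes. All 10 isotypes begin with methionine, arginine and glutamate, followed by isoleucine in the 6 beta genes and cysteine in the 4 alpha genes. Coding sequences are from GENCODE M21 transcripts.
Tubb5 start: ATGAGGGAAATCgtg
Tuba1a start: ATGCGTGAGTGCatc

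The last 48 coding bases, stop codon included, are shown for 7 genes because they encode the tail in which the isotypes differ most. The last sense codon is in capitals.
Tubb3 end: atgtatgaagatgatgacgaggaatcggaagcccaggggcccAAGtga
Tubb2a end: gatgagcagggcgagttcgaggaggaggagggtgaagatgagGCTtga
Tubb2b end: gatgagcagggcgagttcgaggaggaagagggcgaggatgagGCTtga
Tubb4b end: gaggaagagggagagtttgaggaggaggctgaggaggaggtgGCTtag
Tubb5 end: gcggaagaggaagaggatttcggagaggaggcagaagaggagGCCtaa
Tuba1c end: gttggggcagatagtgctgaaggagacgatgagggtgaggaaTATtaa
Tuba4a end: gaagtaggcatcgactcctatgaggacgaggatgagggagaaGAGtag
Tuba1a, Tuba1b and Tuba1c end in a tyrosine codon, the residue that the vasohibins remove and tubulin tyrosine ligase restores, whereas Tuba4a ends in glutamate. Tubb3 ends in lysine. Tubb2a, Tubb2b, Tubb4b and Tubb5 end in alanine, and Tubb6 ends in glutamate.

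The isotypes resemble each other enough to bear on counting. Coding identity ran from 85.3% to 98.4% over the 6 pairs of alpha genes, from 81.1% to 96.5% over the 15 pairs of beta genes, and from 62.6% to 65.1% between the classes. Of all stretches of 100 bases in the annotated transcripts of a gene, 65.8% for Tuba1a, 65.2% for Tuba1b, 46.0% for Tuba1c, 36.9% for Tubb2a, 26.0% for Tubb2b and 22.0% for Tubb4b recur exactly in another gene or pseudogene, so their counts are uncertain where reads could be split. Tubb3, Tubb5 and Tubb6 share none. Tuba4a shares 32.4% with Stk16, a kinase gene on the opposite strand that overlaps 37.3% of its exonic bases, and the use of strand in counting was not stated. Stk16 itself had 1016 and 870 counts on 1 kPa, 963 and 1074 on 20 kPa, and 961 and 651 on glass.

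The genes lie as follows in GRCm38, the assembly of mm10. Tubb3 (ENSMUSG00000062380.5) spans chr8:123411424-123422015 on the plus strand. The paralogs Tubb2a (ENSMUSG00000058672.8, chr13:34074274-34078007) and Tubb2b (ENSMUSG00000045136.7, chr13:34126748-34130466) neighbour each other on the minus strand. Tubb4b (ENSMUSG00000036752.5) spans chr2:25222160-25224702 and Tubb5 (ENSMUSG00000001525.11) chr17:35833921-35838306, both on the minus strand, and Tubb6 (ENSMUSG00000001473.8) spans chr18:67390717-67402749 on the plus strand. Tuba1a (ENSMUSG00000072235.7, chr15:98949837-98953703, minus), Tuba1b (ENSMUSG00000023004.9, chr15:98931425-98934565, minus) and Tuba1c (ENSMUSG00000043091.10, chr15:99029891-99038110, plus) form a cluster. Tuba4a (ENSMUSG00000026202.14) spans chr1:75214228-75219865 on the minus strand. All encode proteins, and values are counts per gene. Whether only exons were counted was not stated in the sources used here.

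Library totals ran from 17669006 to 21350111 counts, and the 10 isotypes together held 41028 to 72117 counts per library, or 0.213% to 0.338% of all counts. Of the 10 fibroblast markers all were detected, at 50364 to 51473 CPM in sum on 1 kPa, 52434 to 55209 CPM on 20 kPa and 36271 to 39030 CPM on glass. CPM is the number of counts per 1000000 in a library, with library sizes scaled by TMM factors. Of the fibroblast markers only Vim was lower on the gels, averaging 2188 CPM on 1 kPa, 2719 CPM on 20 kPa and 4187 CPM on glass. Dcn averaged 3538, 2910 and 157 CPM. Among markers of other cells, those of chondrocytes summed to 692 to 698 CPM on 1 kPa, 1196 to 1246 CPM on 20 kPa and 514 to 548 CPM on glass. Comp, Acan and Col2a1 were higher on both gels than on glass. Sox9 was lower on both, averaging 164 CPM on 1 kPa, 251 CPM on 20 kPa and 285 CPM on glass. The sums of several scarcer lists were higher on the gels, though not every gene in them. Skeletal muscle markers summed to 29.0 to 30.3 CPM on 1 kPa, 16.9 to 19.2 CPM on 20 kPa and 12.6 to 13.0 CPM on glass. Endothelial markers summed to 22.3 to 24.5 CPM on 1 kPa, 21.6 to 21.9 CPM on 20 kPa and 12.4 to 12.7 CPM on glass, and those of Schwann cells and melanocytes to 37.8 to 38.0 CPM on 1 kPa, 42.2 to 42.4 CPM on 20 kPa and 26.0 to 26.5 CPM on glass. Of the 6 genes of the latter list that could be tested, only Mbp was lower on the gels. Mbp averaged 1.48 CPM on 1 kPa, 1.58 CPM on 20 kPa and 8.60 CPM on glass. Keratinocyte markers lay at 25.5 to 27.5 CPM on 1 kPa, 26.1 to 26.7 CPM on 20 kPa and 17.0 to 21.6 CPM on glass. Most of this sum was Trp63, with means of 23.2 CPM on 1 kPa, 22.5 CPM on 20 kPa and 11.1 CPM on glass. The keratins Krt5 and Krt14 went the other way. Krt5 averaged 0.133 CPM on 1 kPa, 0.413 CPM on 20 kPa and 2.68 CPM on glass, and Krt14 0.663, 0.291 and 3.13 CPM. Leukocyte markers (10.5 to 14.8 CPM) and platelet markers (7.01 to 8.69 CPM) varied less over the 6 libraries. Single genes differed widely, such as Myh3, an embryonic muscle myosin, at 6.45 ± 0.73 CPM on 1 kPa, 4.15 ± 0.26 CPM on 20 kPa and 0.156 ± 0.025 CPM on glass (SD, n = 2 each). What part such cells had in the isotype differences was not tested. In these bulk samples fewer cells of a type and less RNA per cell cannot be told apart.

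Tubulin mRNA made up a smaller part of the counted RNA on both gels than on glass, by about the same amount. CPM is relative to the library, and the amount of tubulin mRNA per cell was not measured. The 10 isotypes summed to 2183 and 2297 CPM on 1 kPa and to 2224 and 2219 CPM on 20 kPa, against 3330 and 3238 CPM on glass. The libraries of each gel lay below both glass libraries, and those of the gels overlapped. The mean sum was 0.682 of that on glass for 1 kPa and 0.676 for 20 kPa, and the ratio of 20 kPa to 1 kPa was 0.992. Both classes took part: alpha genes averaged 816.1 ± 37 CPM on 1 kPa, 826.5 ± 13 CPM on 20 kPa and 1280 ± 12 CPM on glass, and beta genes 1424 ± 43 CPM on 1 kPa, 1395 ± 17 CPM on 20 kPa and 2005 ± 77 CPM on glass (SD, n = 2 each). The ratio of alpha to beta CPM per kilobase was 0.786 and 0.802 on 1 kPa, 0.812 and 0.839 on 20 kPa, and 0.836 and 0.893 on glass. These sums are described and were not tested. An exact permutation test of 2 libraries against 2 could not give a two-sided p below 0.333.

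**Figure D1:**
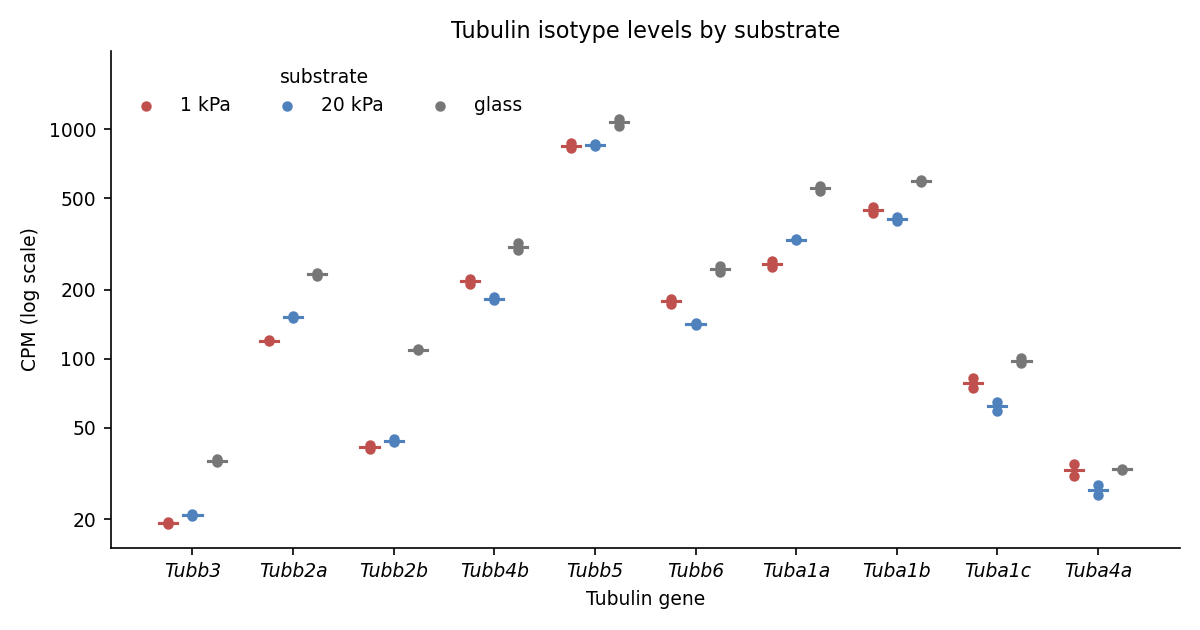
Level of each isotype in every library, in CPM on a log scale, for 1 kPa, 20 kPa and glass; points are libraries and bars are group means of 2. The glass libraries lie highest for 9 genes, the exception being Tuba4a, which had 30.7 and 34.9 CPM on 1 kPa against 33.2 and 32.7 CPM on glass. With 2 libraries a group such an order carries little weight alone, and how often all genes show it is not given here.

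On 1 kPa, 9 of the 10 isotypes were lower than on glass, none was higher, and Tuba4a did not pass the test. Of all 16093 tested genes, 22.0% were lower and 23.0% higher in this comparison. The median log2 fold change of the isotypes was -0.49, against 0.00 for all tested genes. Here and below, a gene is called higher or lower where the edgeR quasi-likelihood test gave an adjusted p under 0.05 (Benjamini-Hochberg over all tested genes). No isotype was higher on either gel than on glass at an unadjusted p under 0.05 with edgeR, nor at the threshold with DESeq2 or limma-voom. Since the labels do not say whether a group's libraries are of separate cultures or animals, the spread behind the p-values is that of the samples alone and may be technical.

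The isotypes known from neurons and developing brain had the largest falls on 1 kPa. Tubb2b had 42.1 and 40.3 CPM on 1 kPa, against 109 and 110 CPM on glass. Both glass libraries were far above both gel libraries, and the level on 1 kPa was 0.377 of that on glass (log2 fold change -1.41, SE 0.07, edgeR adjusted p = 6.58e-17). Tuba1a had 252 and 267 CPM on 1 kPa, against 536 and 569 CPM on glass, again without overlap (log2 fold change -1.09, SE 0.06, edgeR adjusted p = 6.29e-16). Tubb2a had 119 and 121 CPM on 1 kPa, against 236 and 230 CPM on glass (log2 fold change -0.96, SE 0.06, edgeR adjusted p = 1.16e-14). Its 1 kPa libraries were close to each other and far below those on glass. Tubb3 had 19.1 and 19.5 CPM on 1 kPa, against 36.5 and 35.5 CPM on glass (log2 fold change -0.90, SE 0.09, edgeR adjusted p = 8.78e-10).

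The 11 neuron marker genes summed to 12.8 to 14.1 CPM on 1 kPa, 16.4 to 16.7 CPM on 20 kPa and 16.1 to 17.5 CPM on glass. Rbfox3, a nuclear protein of mature neurons, had 0 counts in all libraries, and 5 of the 11 genes had at most 3 counts in each library. Of the 4 that could be tested, Map2, a microtubule-associated protein of dendrites, was lower on 1 kPa than on glass at 4.89 ± 0.11 CPM on 1 kPa and 9.67 ± 0.56 CPM on glass, and Stmn2, a tubulin-binding protein of neurons, was higher at 1.99 ± 0.20 CPM on 1 kPa and 0.688 ± 0.26 CPM on glass (SD, n = 2 each).

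The isotypes of most dividing cells fell less on 1 kPa. Tubb5 had 828 and 868 CPM on 1 kPa, against 1105 and 1038 CPM on glass (log2 fold change -0.34, SE 0.06, edgeR adjusted p = 1.70e-05). Tuba1b had 433 and 457 CPM on 1 kPa, against 600 and 591 CPM on glass (log2 fold change -0.42, SE 0.06, edgeR adjusted p = 3.15e-07). For both genes each 1 kPa library lay below both glass libraries. Tubb4b was at 0.704 and Tubb6 at 0.724 of the level on glass, with log2 fold changes of -0.51 and -0.47. Tuba1c, the third member of the alpha cluster, had 74.8 and 82.6 CPM on 1 kPa and 101 and 95.4 CPM on glass (log2 fold change -0.32, SE 0.07, edgeR adjusted p = 0.000235). Tuba4a, the alpha isotype without a terminal tyrosine codon, did not pass the test (log2 fold change -0.01, SE 0.09, edgeR adjusted p = 0.935), and its libraries overlapped.

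**Figure D2:**
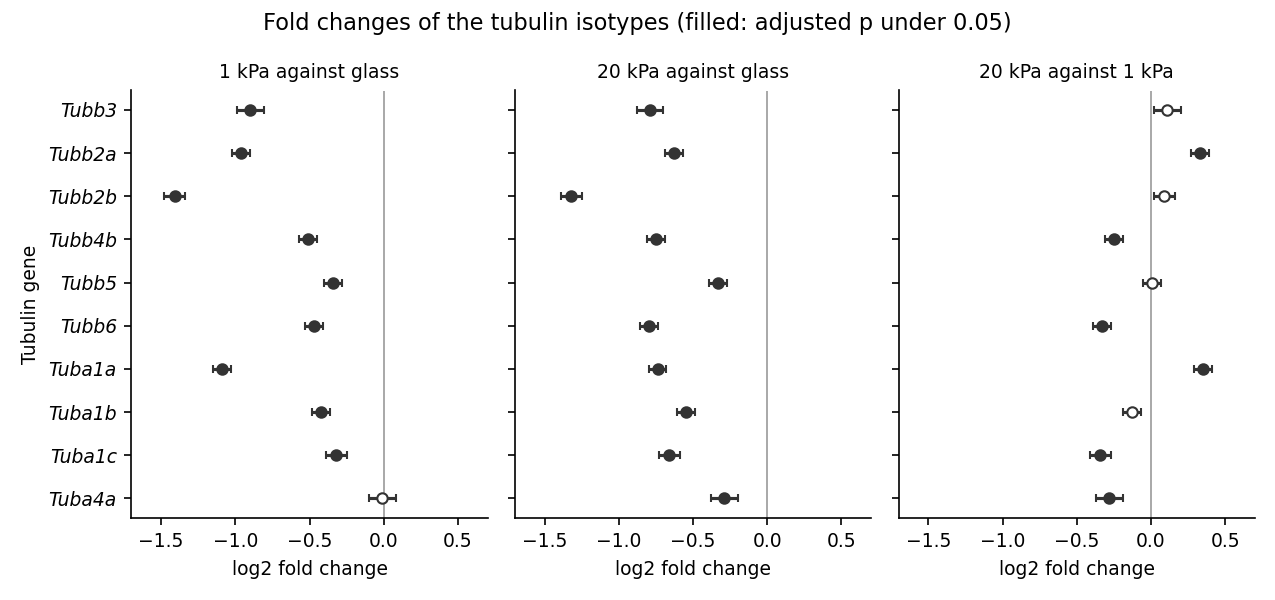
Log2 fold change of each isotype in the 3 comparisons; points are edgeR estimates, bars are 1 SE and filled points passed the test. All filled points lie left of 0 against glass, while between the gels Tubb2a (0.33) and Tuba1a (0.35) lie right of 0 and Tubb4b (-0.25), Tubb6 (-0.33), Tuba1c (-0.34) and Tuba4a (-0.28) left of it.

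On 20 kPa all 10 isotypes were lower than on glass, where 19.6% of all tested genes were lower and 22.3% higher. Their median log2 fold change was -0.70, against 0.02 for all tested genes. The comparisons of each gel with glass share the glass libraries, so their values are set side by side and are not independent of each other. Tubb2b again had the largest fall, with 44.6 and 43.2 CPM on 20 kPa against 109 and 110 CPM on glass (log2 fold change -1.32, SE 0.07, edgeR adjusted p = 3.14e-16). Tubb6 had 143 and 141 CPM on 20 kPa, against 253 and 239 CPM on glass (log2 fold change -0.80, SE 0.06, edgeR adjusted p = 1.27e-12). Every 20 kPa library of both genes lay below both glass libraries.

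Tubb3 had 20.6 and 21.1 CPM on 20 kPa, against 36.5 and 35.5 CPM on glass (log2 fold change -0.79, SE 0.09, edgeR adjusted p = 1.05e-08). Tubb4b had 186 and 180 CPM on 20 kPa, against 319 and 298 CPM on glass (log2 fold change -0.75, SE 0.06, edgeR adjusted p = 4.73e-12). Tuba1a had 332 and 330 CPM on 20 kPa, against 536 and 569 CPM on glass (log2 fold change -0.74, SE 0.06, edgeR adjusted p = 5.01e-12). The fold changes of these 3 genes were within 1 SE of each other. Tuba1c (-0.66), Tubb2a (-0.63) and Tuba1b (-0.55) followed, and Tubb5 had 864 and 845 CPM on 20 kPa against 1105 and 1038 CPM on glass, a fall of the same size as on 1 kPa to within its error (log2 fold change -0.33, SE 0.06, edgeR adjusted p = 2.95e-05). Tuba4a had 25.6 and 28.2 CPM on 20 kPa, against 33.2 and 32.7 CPM on glass (log2 fold change -0.29, SE 0.09, edgeR adjusted p = 0.00804). That call rested on both 20 kPa libraries: without 20 kPa replicate 1 the adjusted p was 0.129.

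Between the gels the family divided. On 20 kPa, Tubb2a and Tuba1a were higher than on 1 kPa, Tubb4b, Tubb6, Tuba1c and Tuba4a were lower, and Tubb3, Tubb2b, Tubb5 and Tuba1b did not pass the test. Of all tested genes 9.92% were lower and 8.94% higher, and with total counts in place of TMM factors 60.9% of the calls over all genes were higher rather than 47.4%. The median log2 fold change of the isotypes was -0.06, against 0.00 for all tested genes.

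Tuba1a had 332 and 330 CPM on 20 kPa, against 252 and 267 CPM on 1 kPa (log2 fold change 0.35, SE 0.06, edgeR adjusted p = 3.20e-05). Tubb2a had 150 and 153 CPM on 20 kPa, against 119 and 121 CPM on 1 kPa (log2 fold change 0.33, SE 0.06, edgeR adjusted p = 6.57e-05). Both stood between their levels on 1 kPa and on glass, with no overlap among the 3 groups. Tubb6 had 143 and 141 CPM on 20 kPa, against 174 and 183 CPM on 1 kPa (log2 fold change -0.33, SE 0.06, edgeR adjusted p = 8.34e-05). Tubb4b had 186 and 180 CPM on 20 kPa, against 212 and 223 CPM on 1 kPa (log2 fold change -0.25, SE 0.06, edgeR adjusted p = 0.00244). Tuba1c had 59.5 and 65.1 CPM on 20 kPa, against 74.8 and 82.6 CPM on 1 kPa (log2 fold change -0.34, SE 0.07, edgeR adjusted p = 0.000652). For these 3 genes 20 kPa was the lowest of the 3 substrates.

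Tuba4a had 25.6 and 28.2 CPM on 20 kPa, against 30.7 and 34.9 CPM on 1 kPa (log2 fold change -0.28, SE 0.09, edgeR adjusted p = 0.0228). Several of these lower calls needed both libraries of a gel. Without 1 kPa replicate 2 the adjusted p was 0.119 for Tubb4b, 0.0719 for Tuba1c and 0.358 for Tuba4a. Without 20 kPa replicate 1 it was 0.0544 for Tuba1c and 0.252 for Tuba4a, and without 20 kPa replicate 2 it was 0.0685 for Tubb4b. Tuba4a also missed the threshold with DESeq2 (adjusted p = 0.0710) and with total counts (edgeR adjusted p = 0.0634). The calls for Tubb2a, Tuba1a and Tubb6 held under all 13 alternative settings.

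Tubb5 had 864 and 845 CPM on 20 kPa and 828 and 868 CPM on 1 kPa, and these overlapped (log2 fold change 0.01, SE 0.06, edgeR adjusted p = 0.929). For Tubb3 and Tubb2b the log2 fold changes were 0.11 (SE 0.09, edgeR adjusted p = 0.441) and 0.09 (SE 0.07, edgeR adjusted p = 0.419). Tuba1b had 400 and 413 CPM on 20 kPa, against 433 and 457 CPM on 1 kPa, without overlap (log2 fold change -0.13, SE 0.06, edgeR adjusted p = 0.109). It passed the test in a fit of the gel libraries alone (edgeR adjusted p = 0.0272) and when either glass library was left out (0.0295 without glass replicate 1 and 0.0288 without glass replicate 2).

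The make-up of the tubulin mRNA differed between the gels although their sums overlapped. Shares are percentages of the summed CPM of the 10 isotypes, and they too are described without a test. They are not corrected for length, so genes with longer exons weigh more. Tubb5 made up 37.9% ± 0.079 on 1 kPa, 38.5% ± 0.53 on 20 kPa and 32.6% ± 0.82 on glass (SD, n = 2 each). Its share was thus larger on both gels, in every library, although its level was lower. Divided by exonic length, the mean share of Tubb5 was 26.6% on 1 kPa, 26.7% on 20 kPa and 22.1% on glass. That of Tuba1b was then close to it, at 24.7% on 1 kPa, 22.5% on 20 kPa and 21.8% on glass. Divided by coding length instead, Tubb5 had 38.1% on 1 kPa, 38.7% on 20 kPa and 32.8% on glass. Tuba1b then had 19.7%, 18.1% and 18.0%, so their closeness depended on the length used. The share of Tuba1a was 11.5% and 11.6% on 1 kPa, 14.9% in both libraries on 20 kPa, and 16.1% and 17.6% on glass. The 95% Wilson interval of counting error for the lower glass value was 15.8% to 16.4%, and for 1 kPa replicate 2 it was 11.3% to 11.9%. Its share was therefore smallest on 1 kPa and largest on glass in all libraries.

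**Figure D3:**
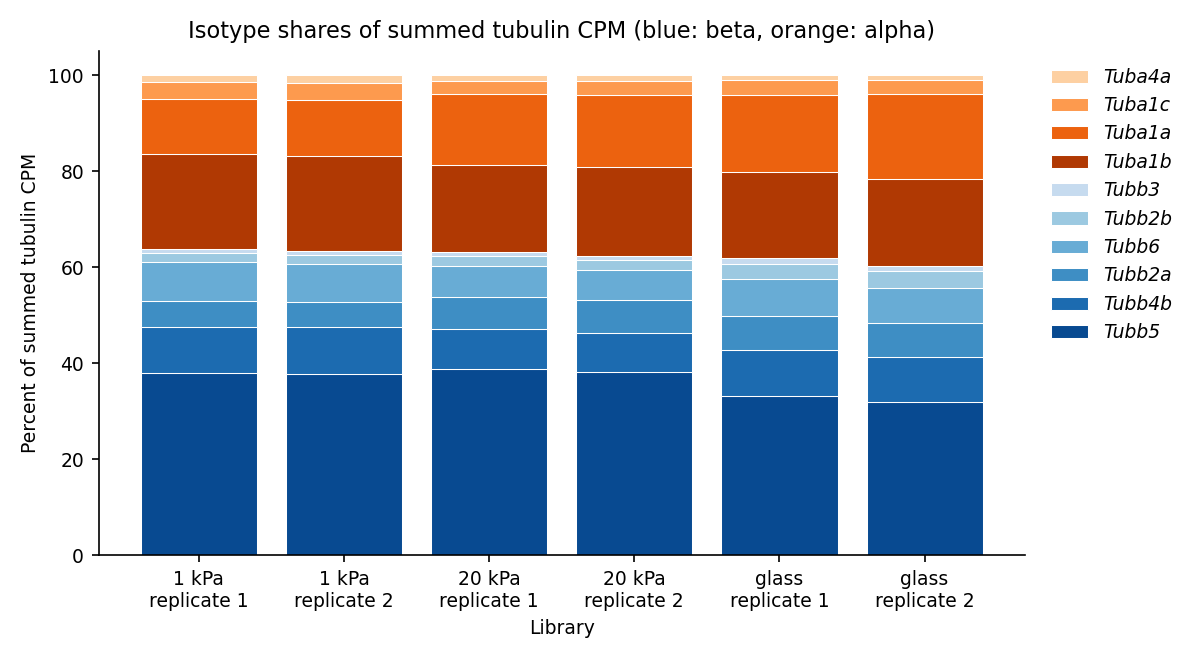
Share of each isotype in the summed tubulin CPM of each library, in percent; blue segments are beta and orange segments alpha isotypes. The Tubb5 segment is taller on the gels (37.8% to 38.8%) than on glass (32.0% and 33.2%), and the Tuba1a segment is shortest on 1 kPa (11.5% and 11.6%).

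Tuba1b took 19.9% ± 0.067 on 1 kPa, 18.3% ± 0.44 on 20 kPa and 18.1% ± 0.15 on glass, where the libraries of 20 kPa and glass overlapped (SD, n = 2 each). Tubb2a took 5.36% ± 0.10 on 1 kPa, 6.80% ± 0.11 on 20 kPa and 7.10% ± 0.023 on glass. Tubb2b took 1.84% ± 0.12 on 1 kPa, 1.98% ± 0.039 on 20 kPa and 3.33% ± 0.086 on glass. Both neighbouring paralogs were thus smallest on 1 kPa, but on 20 kPa the share of Tubb2a was nearer to that on glass than to that on 1 kPa, and the share of Tubb2b nearer to that on 1 kPa. Tubb3 took 0.862% ± 0.020 on 1 kPa, 0.940% ± 0.018 on 20 kPa and 1.10% ± 0.00086 on glass.

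Another group of isotypes had its smallest share on 20 kPa. Tubb4b took 9.69% ± 0.0026 on 1 kPa, 8.23% ± 0.17 on 20 kPa and 9.39% ± 0.26 on glass (SD, n = 2 each). Tubb6 took 7.96% ± 0.011 on 1 kPa, 6.38% ± 0.042 on 20 kPa and 7.50% ± 0.15 on glass, and Tuba1c took 3.51% ± 0.12 on 1 kPa, 2.80% ± 0.18 on 20 kPa and 2.99% ± 0.067 on glass. For Tuba1c, 20 kPa replicate 2 at 2.93% and glass replicate 2 at 2.94% were within counting error of each other. Tuba4a took 1.46% ± 0.081 on 1 kPa, 1.21% ± 0.085 on 20 kPa and 1.00% ± 0.0088 on glass, so that its share was smallest on glass. Within the alpha class alone, Tuba1a made up 31.8% ± 0.10 on 1 kPa, 40.0% ± 0.85 on 20 kPa and 43.2% ± 1.4 on glass, and Tuba1b 54.5% ± 0.32 on 1 kPa, 49.2% ± 0.31 on 20 kPa and 46.6% ± 0.97 on glass. The SD rests on 2 libraries, so the smallest values say little of the spread.

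Levels of different genes can be compared only per length. In CPM per kilobase of exonic sequence, Tubb5, Tuba1b and Tuba1a led on every substrate. On 1 kPa they stood at 255 ± 8.6, 237 ± 9.3 and 144 ± 6.0 CPM per kilobase, and on 20 kPa at 257 ± 4.0, 217 ± 4.8 and 184 ± 0.99 CPM per kilobase. On glass they stood at 322 ± 14, 318 ± 3.7 and 307 ± 13 CPM per kilobase (SD, n = 2 each). The 3 genes were separate on both gels, whereas on glass neighbours in this order overlapped. That closeness on glass depended on the length used. Per kilobase of coding sequence the shares there were 32.8% for Tubb5, 18.0% for Tuba1b and 16.7% for Tuba1a. The order of the 3 genes is uncertain, because 26.2% of the exonic bases of Tuba1a and 27.4% of those of Tuba1b overlap other annotated genes. Among these is Gm49450 on the same strand, and the exonic bases of Tubb5 overlap none. Reads there could be lost or assigned elsewhere, depending on counting settings that were not stated, and Gm49450 itself had 13 to 27 counts per library.

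Below them, Tubb4b had 104 CPM per kilobase on 1 kPa, followed by Tubb2a at 74.5 and Tubb6 at 73.2, which overlapped. On 20 kPa Tubb2a came before Tubb4b, at 93.9 and 87.6 CPM per kilobase, ahead of Tubb6 at 58.1. On glass Tubb4b and Tubb2a overlapped at 148 and 145 CPM per kilobase, ahead of Tubb6 at 101. The lower places went to Tuba1c (34.4), Tubb2b (18.0), Tubb3 (10.3) and Tuba4a (8.87 CPM per kilobase) on 1 kPa, and on 20 kPa to the same genes in that order at 27.2, 19.1, 11.2 and 7.27 CPM per kilobase. On glass Tubb2b at 47.7 CPM per kilobase stood above Tuba1c at 43.0, with Tubb3 at 19.3 and Tuba4a at 8.91. Division by coding length instead exchanged neighbours in this order, namely Tubb2a and Tubb6 on 1 kPa and glass, Tubb2a and Tubb4b on 20 kPa, and Tubb3 and Tuba4a on both gels.

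The other 6 alpha and beta tubulin genes of the table added 0.0444% to 0.156% to the summed alpha and beta CPM of a library. Tubb1, the platelet isotype, and Tuba3a and Tuba3b, known from testis, had 0 counts in all libraries, at a floor of 3 counts per library, which equals 0.139 to 0.174 CPM. Tubal3 had at most 3 counts. Tubb4a, an isotype of oligodendrocytes and neurons, had 4 to 11 counts and Tuba8 23 to 50 counts per library, and neither passed the edgeR, DESeq2 or limma-voom test in any comparison. Nearest to it was Tuba8, with 2.14 and 2.80 CPM on 1 kPa against 1.20 and 1.85 CPM on glass (edgeR adjusted p = 0.0922, the unadjusted value being under 0.05). Intervals and floors cover counting error only.

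Promoters are shown for Tuba1a and Tubb2a, which were higher on 20 kPa than on 1 kPa, and for Tubb4b, which was lower. Each runs from 250 bases before to 50 bases after the gene start in RefSeq (GRCm38.p6), with CCAAT on either strand (CCAAT or ATTGG) and the cell cycle element CHR (TTTGAA or TTCAAA) in capitals.
Tuba1a promoter, chr15:98953452-98953751, minus strand: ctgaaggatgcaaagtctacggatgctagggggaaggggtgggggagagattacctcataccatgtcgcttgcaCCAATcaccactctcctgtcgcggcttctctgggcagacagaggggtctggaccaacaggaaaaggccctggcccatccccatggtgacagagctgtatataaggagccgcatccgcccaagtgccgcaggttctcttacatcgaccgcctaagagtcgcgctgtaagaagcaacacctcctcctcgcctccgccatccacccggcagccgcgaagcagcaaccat
Tubb2a promoter, chr13:34077959-34078258, minus strand: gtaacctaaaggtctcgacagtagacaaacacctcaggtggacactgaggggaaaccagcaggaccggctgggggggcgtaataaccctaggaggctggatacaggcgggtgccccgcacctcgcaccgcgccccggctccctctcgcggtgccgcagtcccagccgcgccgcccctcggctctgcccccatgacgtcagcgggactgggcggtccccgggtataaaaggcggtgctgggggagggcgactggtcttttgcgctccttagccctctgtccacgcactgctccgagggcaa
Tubb4b promoter, chr2:25224653-25224952, minus strand: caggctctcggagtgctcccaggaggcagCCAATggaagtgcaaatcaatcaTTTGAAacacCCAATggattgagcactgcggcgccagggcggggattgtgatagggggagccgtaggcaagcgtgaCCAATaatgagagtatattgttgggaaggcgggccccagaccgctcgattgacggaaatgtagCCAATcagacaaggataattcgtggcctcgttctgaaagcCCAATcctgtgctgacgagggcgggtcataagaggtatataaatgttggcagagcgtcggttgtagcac
The Tubb4b window held 5 CCAAT matches and 1 CHR match, the Tuba1a window 1 CCAAT match, and the Tubb2a window neither. Of the other genes lower on 20 kPa than on 1 kPa the Tuba1c window held 1 CCAAT match and no CHR match, and the Tuba4a window neither. Promoters of 8 isotypes were found in the table, those other than Tubb2b and Tubb6. CCAAT was in 5 of the 8, against 37.4% of all 32851 promoters, and CHR in 1 of the 8, against 17.9%. The GC box (GGGCGG or CCGCCC) was in 7 of the 8, against 35.7%, and the TATA box (TATAAA or TTTATA) in 2 of the 8, against 13.6%. The GC box and TATA box are not in capitals, and a match of letters describes the sequence only.

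Counts for the following gene lists are to be read against the shares of all tested genes, which were 22.0% lower and 23.0% higher on 1 kPa than on glass, 19.6% lower and 22.3% higher on 20 kPa than on glass, and 9.92% lower and 8.94% higher on 20 kPa than on 1 kPa. All 8 subunits of the CCT chaperonin, the ring that folds actin and tubulin, were lower on 1 kPa and on 20 kPa than on glass, with median log2 fold changes of -0.28 and -0.23. Tcp1, a subunit of it, had 216 and 220 CPM on 1 kPa and 211 and 209 CPM on 20 kPa, against 265 and 288 CPM on glass. Between the gels no CCT subunit passed the edgeR, DESeq2 or limma-voom test, and 1 had an unadjusted edgeR p under 0.05. Of the 6 prefoldin subunits, which hand nascent chains to CCT, 2 were lower on 1 kPa than on glass, among them Pfdn1 at 36.5 ± 0.89 CPM on 1 kPa and 47.2 ± 2.1 CPM on glass (SD, n = 2 each), and 1 was lower on 20 kPa than on glass. Pfdn5 was higher on 20 kPa than on 1 kPa.

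Of 8 genes for the cofactors that assemble the dimer, 4 were lower on 1 kPa than on glass, where 22.0% of all genes were. On 20 kPa 1 was lower and 1 higher than on glass, shares no larger than those of all genes (19.6% and 22.3%). Tbcd, a cofactor that binds beta tubulin, was at 65.7 ± 0.88 CPM on 1 kPa, 60.1 ± 3.8 CPM on 20 kPa and 74.5 ± 3.9 CPM on glass (SD, n = 2 each), and was lower than on glass on both gels. Arl2, a small GTPase of the same assembly, was higher on 20 kPa than on either other substrate and the only cofactor gene that differed between the gels. In the autoregulation of tubulin mRNA, Ttc5 is joined by Scaper and the CCR4-NOT deadenylase, and of these 9 genes 1 was lower on each gel than on glass. Scaper, the adaptor, was lower on 1 kPa with 16.5 and 17.0 CPM, against 22.3 and 21.7 CPM on glass, and higher on 20 kPa with 21.9 and 19.7 CPM than on 1 kPa. Cnot1, the scaffold of the deadenylase, was lower on 20 kPa than on glass, and Cnot3 was lower on 20 kPa than on 1 kPa. Among the 12 genes of gamma tubulin and its ring complex, which nucleates microtubules, 3 were lower on 1 kPa than on glass (Mzt1, Tubgcp2 and Nedd1) and 1 on 20 kPa (Nedd1), and Mzt1 was higher on 20 kPa than on 1 kPa. These shares were near or below the 22.0% and 19.6% of all genes that were lower.

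**Figure D4:**
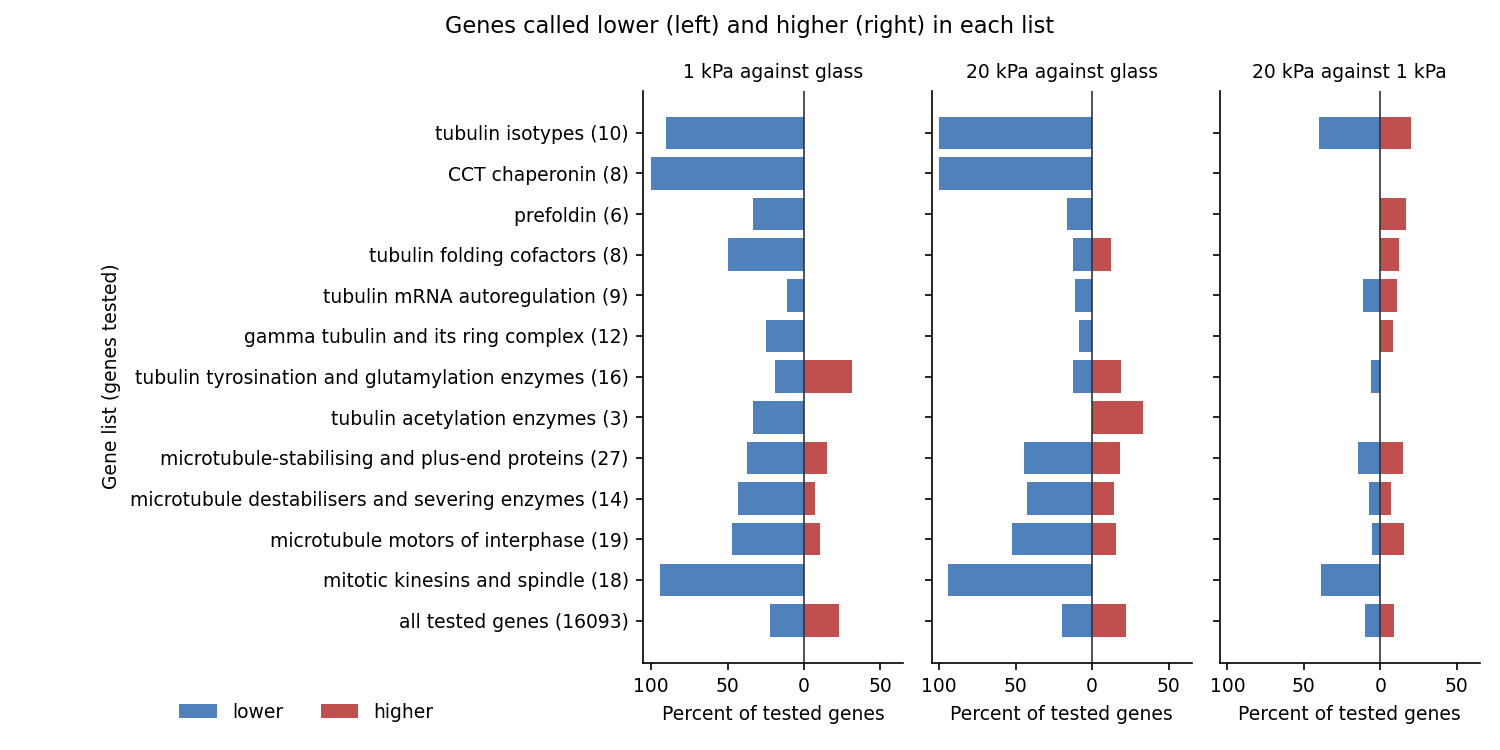
Percentage of the tested genes of each list called lower (left, blue) and higher (right, red) in the 3 comparisons, with all 16093 tested genes in the last row. Against glass the isotypes (9 and 10 of 10 lower), the CCT chaperonin (8 of 8 lower on each gel) and the mitotic genes (17 of 18 lower on each gel) have the longest blue bars.

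Enzymes of tyrosination and glutamylation, which act on the tails, were called against glass about as often as all genes. Of 20 genes for tyrosination and glutamylation, 16 could be tested: 5 were higher and 3 lower on 1 kPa than on glass, 3 higher and 2 lower on 20 kPa than on glass, and 1 lower on 20 kPa than on 1 kPa. Of all genes 23.0% were higher and 22.0% lower on 1 kPa, and 22.3% higher and 19.6% lower on 20 kPa, than on glass. Agbl2, a carboxypeptidase that trims glutamates, had 1.46 and 1.79 CPM on 1 kPa and 1.36 and 1.74 CPM on 20 kPa, against 4.02 and 4.35 CPM on glass. Vash1 and Vash2, the vasohibins, were higher on both gels than on glass, Vash2 at 9.97 ± 0.54 CPM on 1 kPa and 11.3 ± 0.74 CPM on 20 kPa, against 7.46 ± 1.4 CPM on glass (SD, n = 2 each). Ttll4, a glutamylase, was higher on 1 kPa at 58.6 ± 2.4 CPM than on 20 kPa at 49.1 ± 1.6 CPM or on glass at 47.9 ± 2.9 CPM. Of the 3 acetylation enzymes, the deacetylase Sirt2 was lower on 1 kPa and the acetyltransferase Atat1 higher on 20 kPa than on glass, although Atat1 missed the threshold with DESeq2. Between the gels none passed the edgeR, DESeq2 or limma-voom test, and 1 had an unadjusted edgeR p under 0.05.

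Proteins that stabilise microtubules or track their plus ends were lower for 10 of 27 genes and higher for 4 on 1 kPa than on glass, lower for 12 and higher for 5 on 20 kPa than on glass, and lower for 4 and higher for 4 on 20 kPa than on 1 kPa. Against glass 22.0% of all genes were lower and 23.0% higher on 1 kPa and 19.6% lower and 22.3% higher on 20 kPa, and between the gels the 4 and 4 are near the 9.92% and 8.94% of all genes. Map6, which protects microtubules from cold and drugs, had 57.6 and 59.3 CPM on 1 kPa and 53.6 and 54.0 CPM on 20 kPa, against 129 and 112 CPM on glass. Mtus1, a microtubule-associated tumour suppressor, moved the other way, with 31.9 and 30.3 CPM on 1 kPa and 30.0 and 26.2 CPM on 20 kPa, against 14.8 and 14.0 CPM on glass. Both thus separated the gels from glass without overlap. Clip1, a plus-end linker, was lowest on 20 kPa, at 103 ± 2.7 CPM on 1 kPa, 83.5 ± 4.2 CPM on 20 kPa and 124 ± 7.2 CPM on glass (SD, n = 2 each).

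Of 17 destabilisers and severing enzymes, 14 were tested, with 6 lower and 1 higher on 1 kPa than on glass, 6 lower and 2 higher on 20 kPa than on glass, and 1 lower and 1 higher on 20 kPa than on 1 kPa. The shares of all genes were 22.0% lower and 23.0% higher on 1 kPa, 19.6% lower and 22.3% higher on 20 kPa, and 9.92% lower and 8.94% higher between the gels. Stmn1, which sequesters tubulin dimers, had 49.6 and 56.5 CPM on 1 kPa and 53.6 and 61.3 CPM on 20 kPa, against 101 and 94.3 CPM on glass. Kif2c, a depolymerising kinesin of mitosis, stood at 28.9 ± 0.094 CPM on 1 kPa, 19.1 ± 1.0 CPM on 20 kPa and 47.0 ± 4.2 CPM on glass (SD, n = 2 each). Of 19 motor genes of interphase, 9 were lower and 2 higher on 1 kPa than on glass, 10 lower and 3 higher on 20 kPa than on glass, and 1 lower and 3 higher on 20 kPa than on 1 kPa, to be set beside the same shares of all genes. Kif13b, a kinesin of vesicle transport, was higher on 20 kPa with 62.7 and 63.6 CPM than on 1 kPa with 47.1 and 46.5 CPM or on glass with 50.6 and 45.5 CPM.

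Against glass, genes of mitosis were lower together with the isotypes. Between the gels some isotypes and some mitotic genes were lower on 20 kPa. Tubb2a and Tuba1a were higher there, and no mitotic gene was called so. Of 18 genes for mitotic kinesins and the spindle, 17 were lower on 1 kPa and 17 on 20 kPa than on glass, with median log2 fold changes of -0.69 and -0.90. On 20 kPa 7 were lower than on 1 kPa with edgeR, 4 with DESeq2 and 6 with limma-voom, where 9.92% of all tested genes were lower, and none was higher with any of these tests or at an unadjusted edgeR p under 0.05. Mki67, a marker of cycling cells, had 176 and 183 CPM on 1 kPa and 150 and 146 CPM on 20 kPa, against 297 and 293 CPM on glass. Ccnb1, the mitotic cyclin, stood at 44.4 ± 1.3 CPM on 1 kPa, 34.9 ± 1.2 CPM on 20 kPa and 87.6 ± 0.26 CPM on glass (SD, n = 2 each). Both were lowest on 20 kPa, as were Tubb4b, Tubb6, Tuba1c, Tuba4a and Tuba1b, although Tuba1b did not pass the test between the gels. The part of cycling cells in the isotype differences was not tested.

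The isotypes did not all share a profile over the 6 libraries. Likeness was measured as the root mean square difference between mean-centred log2 CPM profiles, as a description, since all genes come from the same libraries. Tubb4b and Tubb6 were the most alike pair of isotypes, at 0.035, and Tubb2a and Tuba1a, the pair higher on 20 kPa than on 1 kPa, differed by 0.071. The farthest pair was Tubb2b and Tuba4a, at 0.597. Outside the family, the gene most like Tubb2a was Vim, the intermediate filament protein vimentin, at 0.029, with 2188 ± 84 CPM on 1 kPa, 2719 ± 57 CPM on 20 kPa and 4187 ± 144 CPM on glass (SD, n = 2 each). The gene nearest to Tuba1a was Cald1, the actin-binding caldesmon, at 0.053, and those nearest to Tubb3 were Asap1 and Actg1, which encodes cytoplasmic gamma actin, both at 0.039.

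For Tubb4b the nearest genes were Abcb1b, a drug transporter, and Espl1, the protease separase of mitosis, both at 0.035. Ankle1 was nearest to Tubb6 at 0.036, Pdlim7 to Tuba1c at 0.038 and Elmo1 to Tubb2b at 0.055. Tubb5 was nearest to Ndufa10, a subunit of respiratory complex I, at 0.019 and to Wsb2 at 0.020, and Tuba1b to Ice1 at 0.022. Tuba4a was most like Smg5, a factor of nonsense-mediated decay, at 0.042, and Smg5 had 103 ± 12 CPM on 1 kPa, 85.6 ± 6.7 CPM on 20 kPa and 110 ± 2.7 CPM on glass (SD, n = 2 each).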

How the data were processed

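Polyadenylated RNA of fibroblasts on 1 kPa, 20 kPa and glass was sequenced in 2 libraries each, and groups and replicate numbers come from the sample titles. The values are raw counts per gene as deposited by the authors. Trim Galore, cutadapt, STAR 2.7.10b, featureCounts and mm10 are named per the submitters' processing notes. Settings, annotation, strand use and the treatment of reads with several matches in counting: not given in the sources used here. Symbols and lengths are from GENCODE M21, which held 91.4% of the 57010 identifiers, 99.9% of them under another version, so exon boundaries may differ.

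Genes were kept with filterByExpr, which left 16093, all 10 isotypes among them, and libraries were scaled with TMM. All 6 libraries entered 1 edgeR 4.0.16 quasi-likelihood fit in R 4.3.3 with 3 residual degrees of freedom, with p-values adjusted by Benjamini-Hochberg over the tested genes and called under 0.05. SE is the size of the log2 fold change over the root of its F statistic. Every adjusted p is from this test unless another is named. DESeq2 1.42.0 and voom of limma 3.58.1 were alternatives, beside total counts, other filters, a replicate block, fits of 2 groups and leaving out each library. The fits were tested on simulated counts. Levels between genes were compared per kilobase of merged exons.

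The isotypes and gene lists were chosen with earlier results of these data known. Named are all isotypes, the other alpha and beta tubulins, at most 4 genes per list, those of smallest p over the 3 substrates, and for each isotype the genes with the most similar profile and a mean of at least 5 CPM. Some genes and sequences that this rule covers are not reported here.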

Additional observations from a re-analysis of the deposited data

How the results depend on the processing

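Of the 30 log2 fold changes of isotypes, 25 kept their side of the threshold under all 13 alternatives. Over all 390 comparisons with an alternative 378 did, 9 lost the call and 3 gained it, and no called fold change turned its direction. Leaving out 1 library moved the number of isotypes lower on 20 kPa than on 1 kPa, 4 with all libraries, to between 1 and 5, with 1 left without 1 kPa replicate 2 and 2 without 20 kPa replicate 1. There a lone library is assumed to vary like the other groups. The number of genes that differed between 20 kPa and 1 kPa was 3035, against 2022 with DESeq2 and 1680 to 3824 when 1 library was left out. With total counts 1949 of those genes were higher and 1253 lower, against 1438 higher and 1597 lower with TMM. The causes were not tested. With a replicate block 9 isotypes were lower on 1 kPa than on glass, 10 on 20 kPa than on glass, and 4 lower and 2 higher on 20 kPa than on 1 kPa, where 2862 genes differed. Deviations of libraries with the same number correlated at -0.0347, -0.0158 and -0.0338 in the 3 pairs of groups. These values include the counting error of all tested genes and cannot exclude a shared origin, which the labels do not state. The main fit used the numbers as names only. Of 90 share differences recomputed per kilobase of exons, per kilobase of coding sequence or over all alpha and beta tubulins, 0 changed sign. Scaling moved the median log2 fold change of all genes to at most 0.049. Depth limits Tubb3 and Tuba4a most, which rest on 348 to 631 counts in a gel library.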
